A study of Homo sapiens with 9 samples.

Results

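Binding of p65 and TEAD was examined around 5 genes of the TRAF and BIRC families, BIRC3, BIRC2, TRAF1, TRAF2 and TRAF3, in chromatin immunoprecipitation sequencing (ChIP-seq) of the established renal cancer line 786-O, derived from a human clear cell carcinoma. A called peak was a member when its summit lay in hg19 chr11:102163000-102243000, which holds BIRC3 and BIRC2, or within 25 kb of the start of TRAF1 (chromosome 9, 123691451), TRAF2 (chromosome 9, 139780965) or TRAF3 (chromosome 14, 103243816). This rule took 46 of the 60345 peaks deposited. They came from 5 lists, each called on 1 library: p65 in cells labelled siTEAD4 (5 members of 1813 peaks), p65 in control cells (13 of 15465), p65 in cells given XMU-MP-1 (5 of 1649), p65 in vehicle cells (14 of 17958), and TEAD in cells given XMU-MP-1 (9 of 23460). p65 is the RELA subunit of NF-κB, TEAD proteins are the DNA-binding partners of YAP, and XMU-MP-1 inhibits the Hippo kinases MST1 and MST2. The siRNA sample has siTEAD4 in its title, while its treatment is given as siTEAD. The labels give neither the dose or duration of either agent nor which TEAD protein the antibody recognises.

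The 5 genes belong to one signalling module. TRAF2 is an adaptor and TRAF1 its frequent partner at receptors of the tumour necrosis factor family. They recruit the ubiquitin ligases BIRC2 and BIRC3, also known as cIAP1 and cIAP2, which ubiquitinate RIPK1 and hold back cell death through caspase-8. TRAF3, with TRAF2 and the BIRC ligases, keeps the kinase NIK at a low level and so restrains the non-canonical branch of NF-κB. BIRC3 and TRAF1 are textbook NF-κB target genes, so the module both feeds the pathway and is fed by it.

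The promoters below are shown because a p65 peak crossed the start of each gene (for BIRC3 and BIRC2, the point taken as the start), and because BIRC3 and TRAF3, which had the strongest peaks across a start, hold the same κB letters. Each is the 250 bases before the RefSeq start of the gene, read 5′ to 3′ on its own strand, from RefSeq on build GRCh38.p14. The positions are chr11:102317234-102317483 (plus strand) for BIRC3, chr14:102777199-102777448 (plus) for TRAF3, chr9:136886266-136886515 (plus) for TRAF2 and chr11:102346964-102347213 (plus) for the first of the 2 start entries of BIRC2. Peak positions are on hg19 and were not carried over to this build. Capitals mark a strict κB pattern on either strand: GGG, any 2 bases, TT, any base, then CC.

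BIRC3: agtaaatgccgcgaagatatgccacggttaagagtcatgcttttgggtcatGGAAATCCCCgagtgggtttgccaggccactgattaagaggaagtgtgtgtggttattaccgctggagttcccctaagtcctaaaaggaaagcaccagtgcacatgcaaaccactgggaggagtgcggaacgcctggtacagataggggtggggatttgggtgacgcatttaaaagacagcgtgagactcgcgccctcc
TRAF3: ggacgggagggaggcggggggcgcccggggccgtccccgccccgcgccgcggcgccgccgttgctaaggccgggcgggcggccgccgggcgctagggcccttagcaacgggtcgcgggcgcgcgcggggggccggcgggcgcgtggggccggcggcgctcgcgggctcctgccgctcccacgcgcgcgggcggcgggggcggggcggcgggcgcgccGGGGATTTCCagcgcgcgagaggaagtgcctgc
TRAF2: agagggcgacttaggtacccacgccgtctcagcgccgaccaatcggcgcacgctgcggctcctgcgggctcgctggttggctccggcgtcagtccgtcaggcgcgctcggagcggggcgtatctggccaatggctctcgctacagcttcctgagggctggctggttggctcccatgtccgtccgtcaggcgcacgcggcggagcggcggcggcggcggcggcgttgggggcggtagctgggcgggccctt
BIRC2: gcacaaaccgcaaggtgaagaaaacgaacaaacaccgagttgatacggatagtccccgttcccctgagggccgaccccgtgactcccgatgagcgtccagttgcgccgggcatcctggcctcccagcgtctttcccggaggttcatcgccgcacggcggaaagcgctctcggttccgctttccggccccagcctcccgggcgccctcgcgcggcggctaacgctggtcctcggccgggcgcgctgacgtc

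All 5 genes were matched in the promoter table. The strict κB pattern occurred once in the BIRC3 promoter, on the strand opposite to the gene and 199 to 190 bases before its start, and once in the TRAF3 promoter, on the gene's strand and 33 to 24 bases before its start. Both matches read GGGGATTTCC, which was noticed after the matches were seen. The strict pattern lay in 5.07% of 35116 promoter entries of the same length, and GGGGATTTCC in 38 of them (0.108%). No entry of BIRC2, TRAF1 or TRAF2 held the strict pattern. A looser pattern, GGG and CC with any 5 bases between them, which includes the strict one and overlaps itself in GC-rich sequence, was in 54.4% of all entries. In the BIRC3 promoter it gave 1 further match, GGGGAACTCC, 135 to 126 bases before the start. With both strands and overlaps counted, it matched 8 times in the TRAF3 promoter, the strict match included, and 2 times in TRAF2. The 2 BIRC2 entries had 4 and 3 matches, and the 3 TRAF1 entries had 0, 3 and 1. No member promoter held the TEAD pattern GGAATG, found in 11.9% of all entries, or the AP-1 pattern TGANTCA, found in 6.57%, on either strand. GC content was 52.4% in the BIRC3 promoter and 86.4% in the TRAF3 promoter, against a median of 58.0% over all entries.

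With 1 library per condition, differences between lists could not be checked against replicates and were not tested. The deposited fold of a peak is the authors' value for its summit relative to the nearby background in the same library. Folds are set in order within a list, and are placed beside each other across lists without showing a change. The number of immunoprecipitated fragments at each summit was solved from the fold and the p-value. Intervals on fragments (exact Poisson, 95%) and on shares of peaks (exact binomial, 95%) cover counting error only. The peak identifiers of the list labelled siTEAD4 carry another condition name, p65_Vert, so its treatment rests on the sample label alone. In the 4 windows, peak numbers skipped no value in any list, so no peak was taken out there after the numbers had been given.

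Member peaks merged into 15 regions. Of these, 4 had a peak in all 5 lists (26.7%, 7.79 to 55.1), and they lay at BIRC3, near the start of BIRC2, inside the TRAF1 window and inside the TRAF2 window. Over the whole series 900 of 35117 regions merged in the same way (2.56%) had one in all 5, though members were stronger than their lists. None of the regions around TRAF3 did. A peak in only 1 list was found at 4 regions.

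**Figure D1:**
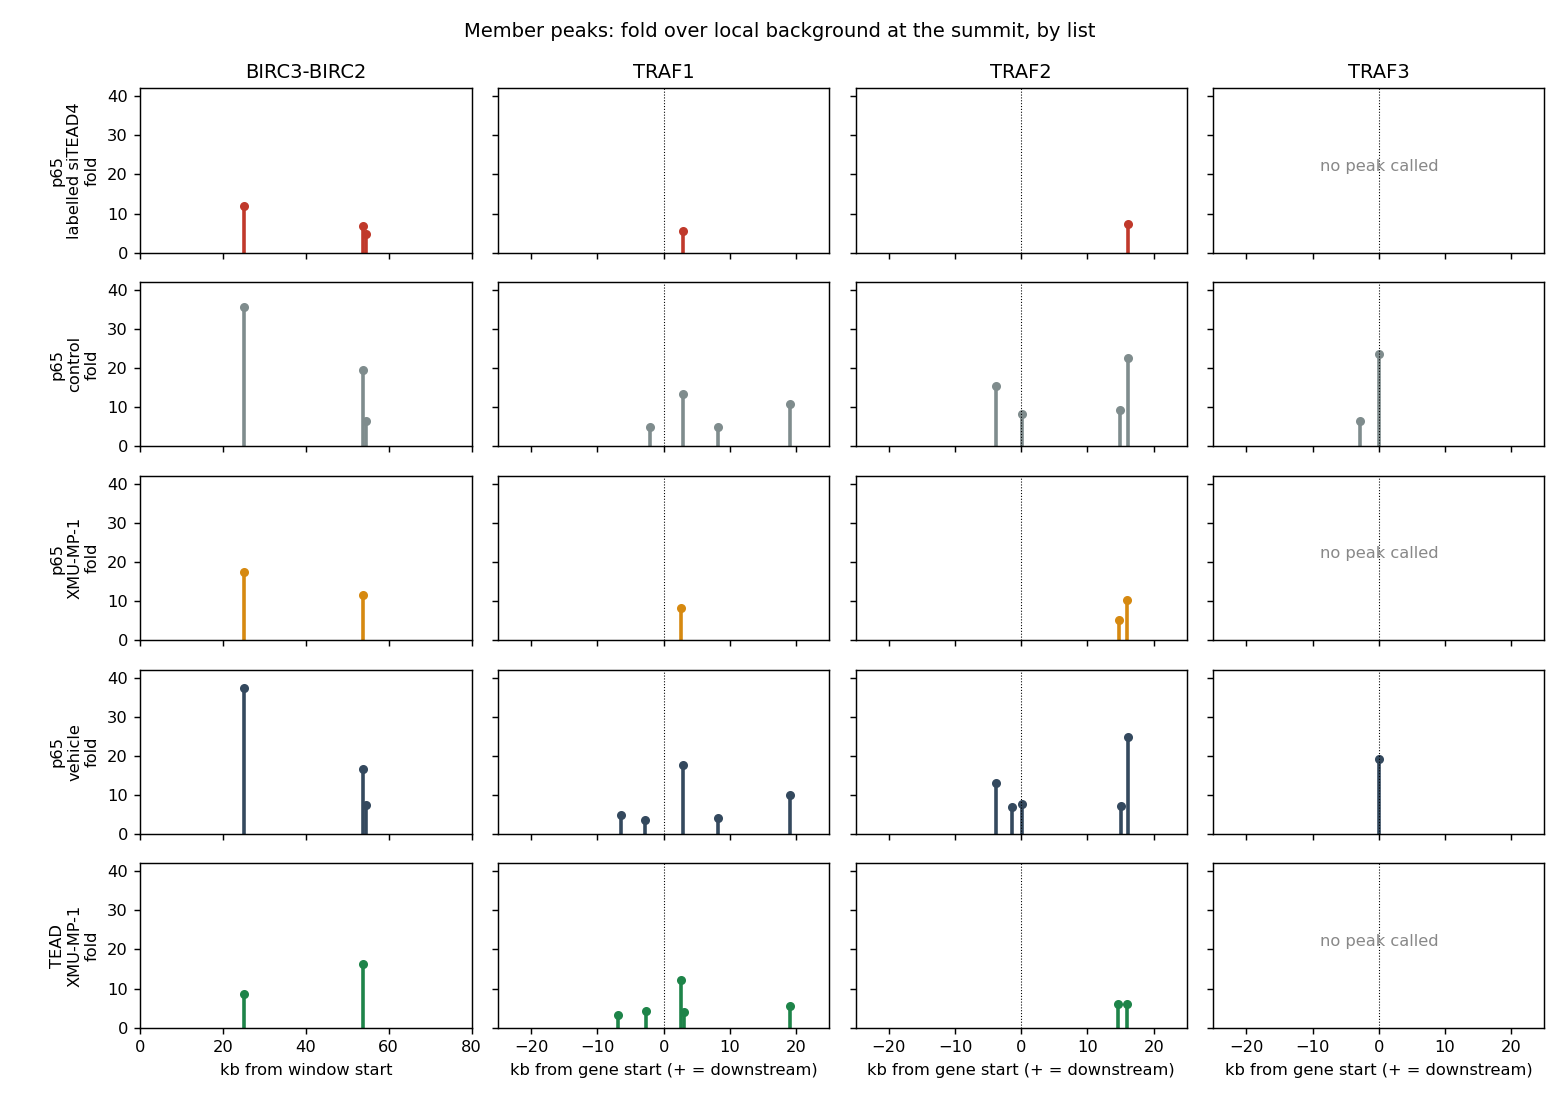
Fold at the summit (vertical axis) of every member peak, by position in kb, in 4 windows (columns) and 5 lists (rows). The horizontal axis runs from the gene start for the TRAF genes, and from the first base of the window for BIRC3 and BIRC2. BIRC3 carries the tallest p65 peak in each row, and TRAF3 has peaks in the control and vehicle rows only.

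BIRC3, a ubiquitin ligase and NF-κB target gene, had the strongest p65 peak by fold among the members in each p65 list. The rule gives no separate starts for the BIRC genes, and the points 25 kb inside the ends of their window, 102188000 and 102218000, are taken here as the rounded starts of BIRC3 and BIRC2. Both points are rounded, so distances in bp refer to them, and the side of the true start was not determined. The p65 summits at BIRC3 lay 55 to 76 bp past the first of these points and within 21 bp of each other. The fold was 11.8 in the list labelled siTEAD4, against 35.5 in the control list. XMU-MP-1 cells had a fold of 17.5, against 37.3 in vehicle cells. The fragments at these summits numbered 74 (58.1 to 92.9) in the library labelled siTEAD4, 180 (154.7 to 208.3) in the control, 88 (70.6 to 108.4) in XMU-MP-1 and 116 (95.9 to 139.1) in vehicle. By fold the site ranked 83rd in the list labelled siTEAD4, 12th in the control, 36th in the XMU-MP-1 and 24th in the vehicle list. TEAD was also called there, with a fold of 8.66 on 23 fragments (14.6 to 34.5), and its summit was 37 bp from that of vehicle p65.

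BIRC2, the paralogue of BIRC3 next to it on the chromosome, carried a pair of p65 peaks in 1 merged region of 1558 bp. The stronger had its summits 1164 to 1214 bp before the point taken as the start of BIRC2. Its fold was 6.88 in the list labelled siTEAD4 and 19.5 in the control list. XMU-MP-1 cells had a fold of 11.5, against 16.7 in vehicle cells. Here TEAD had its strongest member peak, with a fold of 16.3 on 40 fragments (28.6 to 54.5), 14 bp from the vehicle p65 summit. By fold alone, TEAD was higher at BIRC2 and p65 at BIRC3. In the TEAD list the BIRC3 peak had 0.532 of the BIRC2 fold, but the fragment intervals of these 2 TEAD peaks overlap. The BIRC2 site had 0.448 of the BIRC3 fold in the vehicle p65 list, 0.549 in the control list and 0.581 in the list labelled siTEAD4. It had 0.656 in the XMU-MP-1 p65 list, from cells treated as those of the TEAD library were.

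The weaker p65 peak of the region lay nearer the point taken as the start of BIRC2, with summits 391 to 554 bp before that rounded point. Its fold was 4.83 in the list labelled siTEAD4, against 6.41 in the control list. It was 7.38 in the vehicle list, and in the XMU-MP-1 list a single peak of 1194 bp ran over both sites. Among the control members kept in the list labelled siTEAD4 this was the weakest. Of the 2695 control peaks with a fold within 10% of it, 4.68% (95% interval 3.91 to 5.54) had a peak labelled siTEAD4.

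TRAF1, a receptor adaptor, had no peak across the start used in the rule in any list. RefSeq has 3 start entries for TRAF1, and distances from peaks to the other entries were not measured. The main p65 site of TRAF1 lay 2654 to 2911 bp downstream of the start in the rule, in the direction of transcription. The fold was 5.63 in the list labelled siTEAD4 and 13.4 in the control list, with 8.13 in XMU-MP-1 cells against 17.5 in vehicle cells. TEAD was called at the same region with a fold of 12.1 on 31 fragments (21.1 to 44.0), and a smaller TEAD peak with a fold of 4.10 lay beside it. The p65 summits of the siTEAD4-labelled, control and vehicle lists were 201, 237 and 249 bp from the stronger TEAD summit. In XMU-MP-1 cells the p65 summit was 8 bp from the stronger TEAD summit and 257 bp from the vehicle p65 summit. The vehicle p65 summit, 2911 bp downstream of the start, lay between the 2 TEAD summits, the smaller at 3103 bp and the stronger at 2662 bp. Over the 1206 XMU-MP-1 peaks with both a vehicle and a TEAD peak, the median distance between XMU-MP-1 and vehicle summits was 36.0 bp, and it was over 200 bp for 4.64%. The XMU-MP-1 summit was nearer to TEAD than the vehicle summit at 52.2% of these peaks and farther at 46.8%.

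Around TRAF1 there were 4 more regions with p65 in cells with neither agent, and neither treated list held any of them. The strongest lay 19.1 kb downstream of the start, with a control fold of 10.96 and a vehicle fold of 9.93, beside a TEAD fold of 5.43. The others had control or vehicle folds between 3.60 and 5.05, at 8.2 kb downstream and 2.7 and 6.5 kb upstream, and the one at 2.7 kb had a TEAD fold of 4.29. At 6.8 kb upstream TEAD alone was called, with a fold of 3.16, which made it the weakest member of all.

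TRAF2, the adaptor that brings the BIRC ligases to the receptor, had 5 regions. The dominant one lay 16.1 kb downstream of the start, with p65 summits within 42 bp of each other. Its fold was 7.22 in the list labelled siTEAD4 and 22.5 in the control list, with 10.2 in XMU-MP-1 cells against 24.8 in vehicle cells. Relative to the BIRC3 fold of the same list these are 0.610, 0.633, 0.585 and 0.665, so by fold the site held a similar place below BIRC3 in all 4 lists. The fragments numbered 64 (49.3 to 81.7) in the library labelled siTEAD4, 190 (163.9 to 219.02) in the control, 64 (49.3 to 81.7) in XMU-MP-1 and 116 (95.9 to 139.1) in vehicle. At BIRC3 these counts were 74, 180, 88 and 116. By fragments the site was thus not below BIRC3 in the control and vehicle lists, where its local background was higher. TEAD had a modest fold of 6.01 there, 51 bp from the vehicle p65 summit. A neighbouring region 14.9 kb downstream had a p65 fold of 5.06 under XMU-MP-1, against 7.22 under vehicle, and a control fold of 9.20. It had no peak in the list labelled siTEAD4, and was the one member region with p65 in a single treated list.

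At the start of TRAF2 itself p65 was weaker. The peak had its summit 177 bp downstream in the control list, with a fold of 8.17, and 168 bp downstream in the vehicle list, with a fold of 7.68. A stronger peak 3.8 kb upstream had a control fold of 15.5 and a vehicle fold of 13.1. Between them, 1.4 kb upstream, the vehicle list alone held a peak, with a fold of 6.93. Neither treated p65 list nor the TEAD list had a peak at these 3 regions.

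TRAF3, the restraint on NIK, had strong p65 binding at its start in control and vehicle cells, and no peak in either treated list. The p65 summit lay 30 bp downstream of the start in the control list, with a fold of 23.7 on 97 fragments (78.7 to 118.3), and 24 bp downstream in the vehicle list, with a fold of 19.0 on 49 fragments (36.3 to 64.8). No p65 peak was called in the window in the list labelled siTEAD4 or in the XMU-MP-1 list, and no TEAD peak either. In the control list TRAF3 ranked above the dominant TRAF2 site by fold, though the latter had 190 fragments on a background of 6.82. In the vehicle list that TRAF2 site ranked higher by fold, 176th against 520th for TRAF3. The TRAF2 site was kept in both treated lists. Of the 152 control peaks at least as strong as the one at TRAF3, itself included, 143 had a peak labelled siTEAD4 and 9 had none. In the vehicle list 520 peaks were at least as strong, and of these 380 had an XMU-MP-1 peak and 140 had none. Over both pairs, TRAF3 was 8th by control fold among the 10203 sites that were shared by control and vehicle and missing from both treated lists. A second control peak 2.8 kb upstream, with a fold of 6.40, was in no other list.

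The part of depth in the absence of a TRAF3 peak was not tested, and the values that describe it are these. Peaks with a local background at the floor of their list were called from 12 fragments up in the list labelled siTEAD4 and from 14 up in the XMU-MP-1 list. The floor was 2.34 fragments in the library labelled siTEAD4 and 2.31 in the control, and 2.33 in XMU-MP-1 and 1.25 in vehicle. The TRAF3 summit had 97 fragments in the control on a local background of 2.46, and 49 in vehicle on 1.63.

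**Figure D2:**
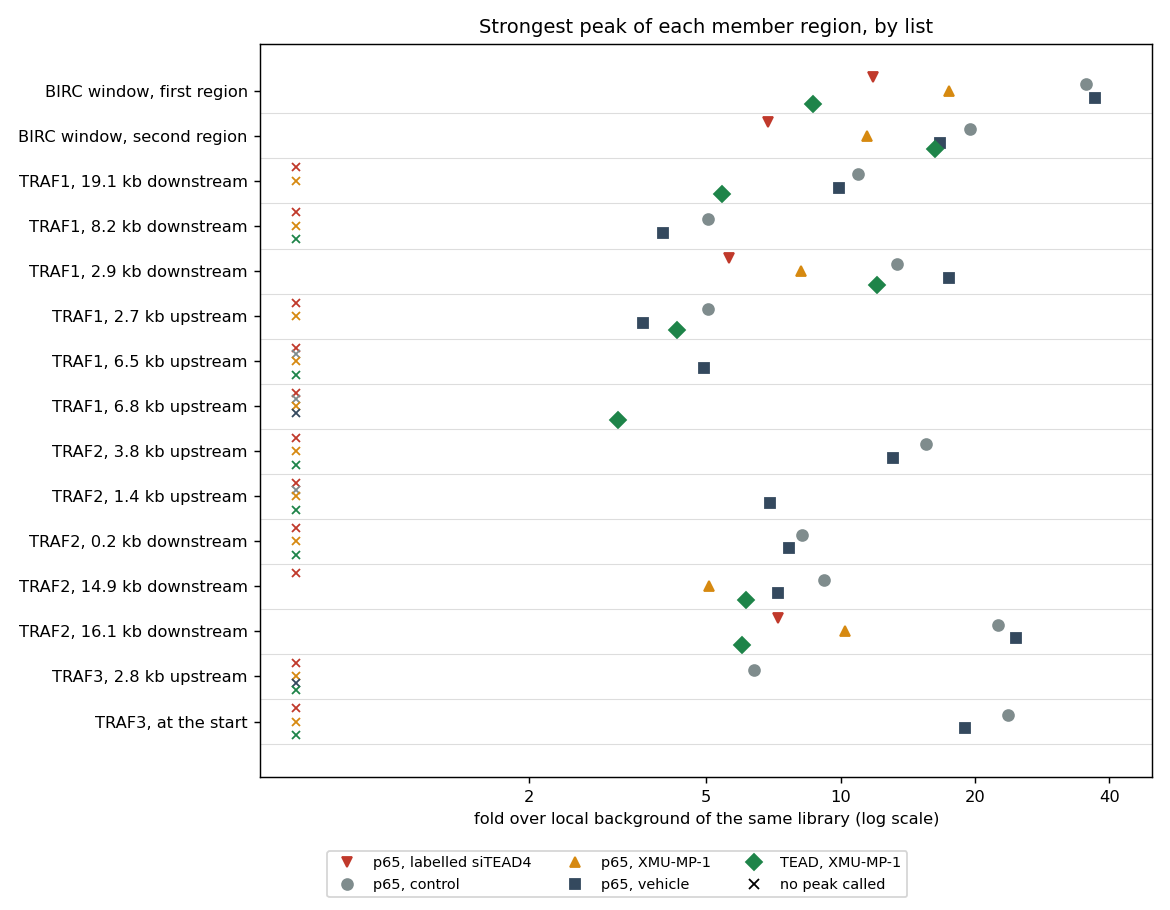
Fold over the local background (horizontal axis, log scale) of the strongest peak in each of the 15 member regions (vertical axis), with 1 symbol per list and a cross at the left where no peak was called. Both BIRC regions, TRAF1 at 2.9 kb downstream and TRAF2 at 16.1 kb downstream have all 5 symbols, and TRAF3 at the start has 19.0 and 23.7 in the vehicle and control lists with crosses for the rest.

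Counted over all members, 5 of 13 control peaks were kept in the list labelled siTEAD4 (38.5%, 13.9 to 68.4), where kept means at least 1 bp in a peak of that list. Over all control peaks the share was 11.2%. For XMU-MP-1 the count was 6 of 14 vehicle peaks (42.9%, 17.7 to 71.1), against 8.77% of all vehicle peaks. With summits within 200 bp required instead, this count was 3 of 14 (21.4%), because the vehicle summits near the start of BIRC2, at TRAF1 and at 14.9 kb of TRAF2 were farther from those of XMU-MP-1. All 3 control and all 3 vehicle peaks at the BIRC genes were kept, and none of the 2 control and 1 vehicle peaks at TRAF3.

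Members were stronger than their lists, which bears on these shares. Control members had a median fold of 10.96, against 5.98 over all control peaks, and vehicle members one of 8.80, against 5.87. In each list 6 members were among the strongest 10% of peaks. When each control member was given the share kept among all control peaks within 10% of its fold, the shares summed to 4.98 peaks, beside the 5 that were kept. For vehicle members the sum was 3.84, beside 6. Among control members, the weaker BIRC2 peak was kept at a fold where 4.68% of control peaks were, and TRAF3 was lost at a fold where 91.7% of 132 control peaks were kept. Among vehicle members, the weaker BIRC2 peak was kept at a fold where 5.60% of vehicle peaks were. It counted as kept through the single XMU-MP-1 peak that also covered the stronger BIRC2 site. The TRAF2 peak 15.1 kb downstream in the vehicle list was kept where 5.05% were. TRAF3 was lost at a fold where 56.4% of 349 vehicle peaks were kept.

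**Figure D3:**
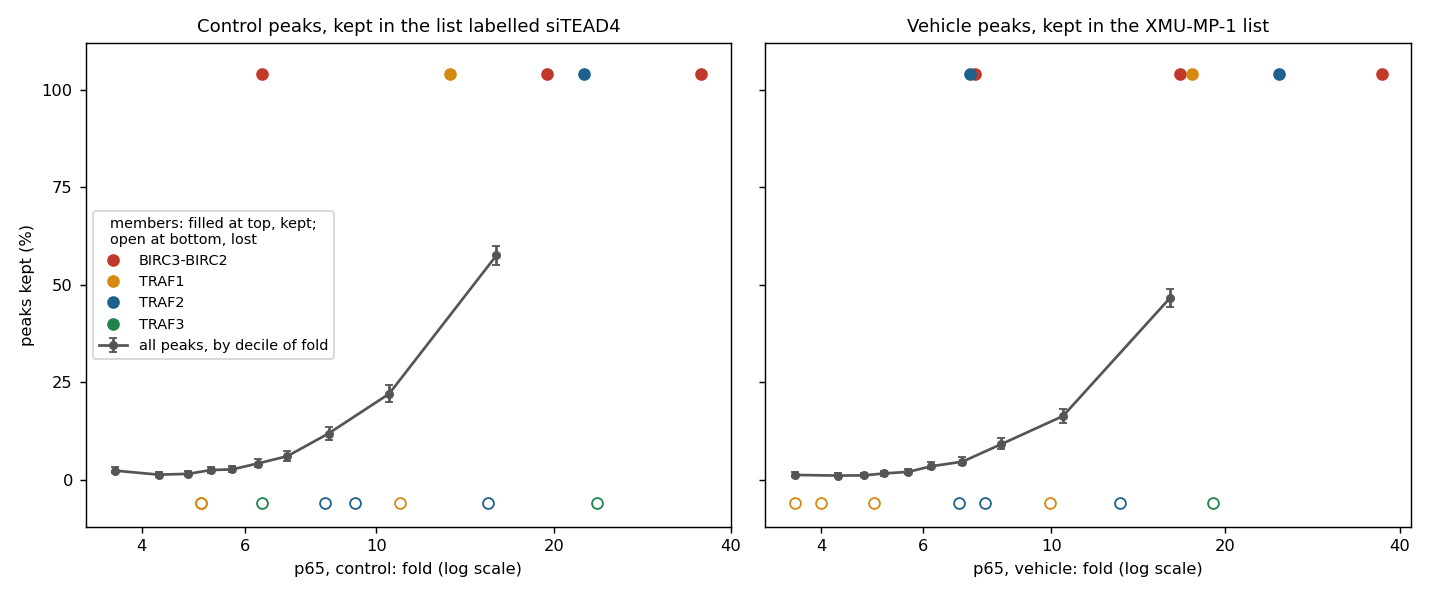
Share of all peaks kept (grey line, 95% exact binomial intervals) by decile of fold, for control peaks in the list labelled siTEAD4 (left) and for vehicle peaks in XMU-MP-1 cells (right), with fold on a log scale. Members are drawn as filled circles at the top where kept and open circles at the bottom where lost; the open circle farthest right in each panel is TRAF3, at folds of 23.7 and 19.0.

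The control and vehicle lists, both from cells with neither agent, coincided at most members. Of 13 control members 12 had a vehicle peak (92.3%, 63.97 to 99.8), against 79.5% of all control peaks, and the exception was the upstream TRAF3 peak. Of 14 vehicle members 12 had a control peak (85.7%, 57.2 to 98.2), against 68.5% of all vehicle peaks. Both intervals include the share over all peaks. The exceptions were the peak 6.5 kb upstream of TRAF1 and the one 1.4 kb upstream of TRAF2.

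All 5 members labelled siTEAD4 had a control peak, as did 96.3% of that list, and all 5 XMU-MP-1 p65 members had a vehicle peak, as did 95.7% of theirs. Between the treated lists, all 5 members labelled siTEAD4 had an XMU-MP-1 peak (47.8 to 100%), where 66% of that list did. Of the 5 XMU-MP-1 members 4 had a peak labelled siTEAD4 (28.4 to 99.5%), where 72.3% did. Both intervals include the share of the whole list.

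A TEAD peak lay at 8 of the 14 vehicle members (57.1%, 28.9 to 82.3), against 45.6% of all vehicle peaks, and at 8 of the 13 control members (31.6 to 86.1%), against 47.4%. Both intervals include the share over all peaks. In the other direction 8 of the 9 TEAD members had a vehicle p65 peak (88.9%, 51.8 to 99.7), where 34.5% of all TEAD peaks did. An XMU-MP-1 p65 peak, from cells treated as those of the TEAD library were, lay at 5 of the 9 (21.2 to 86.3%), where 5.26% of all TEAD peaks had one. Control and vehicle p65 members were stronger than their lists, and these shares of TEAD members were not matched for p65 fold. All 5 members labelled siTEAD4 and all 5 XMU-MP-1 p65 members had a TEAD peak (47.8 to 100% for each), where 71.6% and 75.2% of their lists did. The interval includes both of these list shares. Among the control members lost from the list labelled siTEAD4, 3 of 8 had one (8.52 to 75.5%), where 44.2% of all lost control peaks did. Among the vehicle members lost from the XMU-MP-1 list, 2 of 8 had one (3.19 to 65.1%), where 42.6% of all lost vehicle peaks did. The members lost without a TEAD peak included TRAF3 at its start and both the promoter and the 3.8 kb upstream peak of TRAF2. The TEAD counts of kept and lost members were not matched for fold. Of control peaks within 10% of the TRAF3 fold of 23.7, 65.9% had a TEAD peak, against 45.4% near a fold of 5.05.

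**Figure D4:**
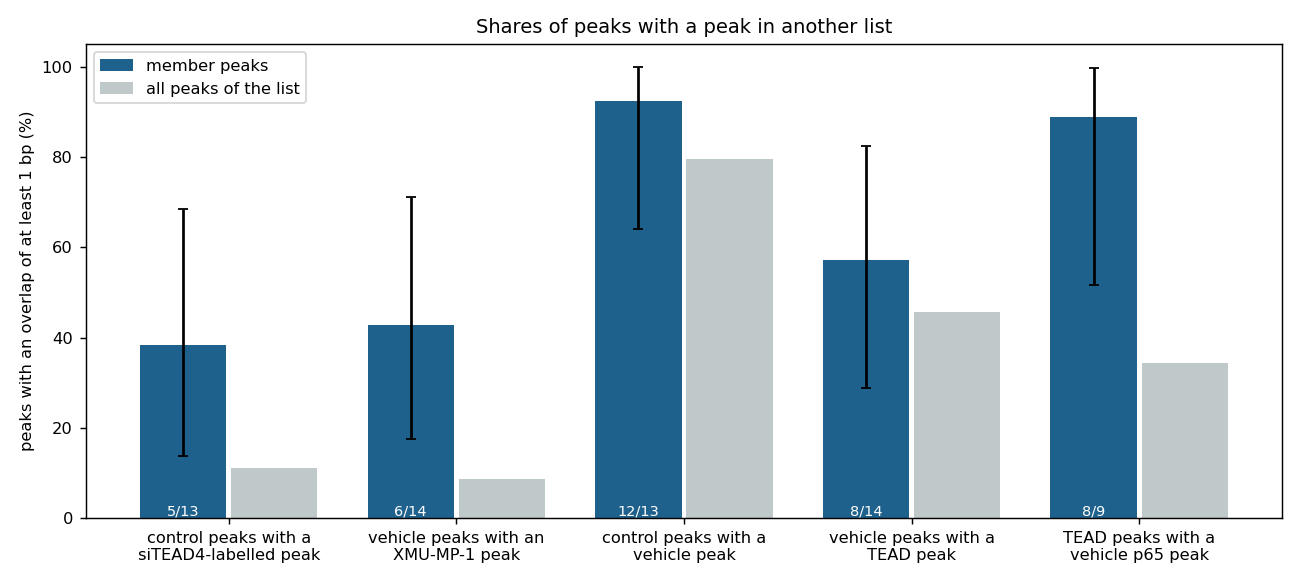
Percentage of peaks with an overlap of at least 1 bp in another list (vertical axis), for member peaks (blue, left of each pair, with 95% exact binomial intervals and counts at the base) and for all peaks of the same list (grey, right). The bar of the members is the higher one in the 5 pairs at this overlap, and the intervals for control peaks with a vehicle peak and for vehicle peaks with a TEAD peak include the value of the whole list.

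The members farthest from a TRAF start were those 19.1 kb downstream of TRAF1. The nearest peaks past the 25 kb limit were at TRAF3, 28.0 kb downstream in the vehicle list with a fold of 5.08 and 28.1 kb downstream in the control list with a fold of 7.59.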

How the data were processed

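The submitters' processing notes name Bowtie2 2.4.5, fastp, MACS2 and build hg19. Settings of MACS2, and the input used for each list, were not stated. The series analysed has 9 libraries, 4 of them inputs that were not used here. Each immunoprecipitate has 1 deposited narrowPeak list. The authors deposited for each peak a fold enrichment over local background, a −log10 p-value, a −log10 q-value and a whole-number score, which was not used. Read totals are not in the lists.

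Fragments at a summit and local background were solved from the fold (pileup plus 1 over background plus 1) and the Poisson p-value, to within 0.005 of the −log10 p. Pileups were multiples of 0.587 in the control and 0.783 in the XMU-MP-1 list, and were divided by these to give fragments. The floor is the 1st percentile of local background. Peaks overlapped when they shared at least 1 bp. Start distances follow gene strand. Python 3.11.15, numpy 2.4.6, pandas 2.3.3 and scipy 1.17.1 were used, and the code was tested on simulated data. Regions were named when they held the strongest peak of a locus in a list or a peak of a treated p65 list, and the rest are given by count and range or as exceptions to a count, chosen after their values were seen. Members, gene lists and patterns were chosen with earlier results of these data known. A wider list of pathway genes was not analysed here, because their hg19 positions were not used.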

Additional observations from a re-analysis of the deposited data

How the results depend on the processing

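With 46 members, shares have wide intervals, and the part of depth in the length of the treated lists was not tested. Under the alternatives 57 values were computed: 51 lay inside the 95% interval of the reported share or within 1.5 times the reported count, and 6 lay outside. These intervals are wide: vehicle members kept in the XMU-MP-1 list fell from 42.9% to 21.4% and still lay inside. Swapping the reference list and leaving out the list labelled siTEAD4 (41 members) were chosen after seeing the data. With TRAF windows of 10 kb the XMU-MP-1 list held 3 members, and with windows of 50 kb the TEAD list held 15; these follow from the window. The TEAD list held 3 members at a −log10 q of at least 10, a stricter threshold. The share of control members with a vehicle peak was 100% (10 of 10) at that threshold. It was lowest, 76.9% (10 of 13), at a −log10 q of at least 5, where the share of the whole list was not computed. All TEAD members had a vehicle peak at a −log10 q of at least 5 (6 of 6, 100%) and of at least 10 (3 of 3). Other settings gave lower shares of TEAD members with a vehicle peak. They were 66.7% (6 of 9) for summits within 200 bp, 73.3% (11 of 15) for windows of 50 kb and 83.3% (5 of 6) for windows of 10 kb. The share of control members kept in the list labelled siTEAD4 ranged from 29.4% to 40%, with 35.7% for vehicle members. For vehicle members kept in the XMU-MP-1 list the range was 21.4% to 50%, with 46.2% for control members. A TEAD peak lay at 40% to 61.1% of vehicle members, with 45.5% for windows of 10 kb, beside 45.6% of the whole list. The share was 42.9% for summits within 200 bp and 40% at a −log10 q of at least 10. For these 2 settings the share of the whole list was not computed. No paired analysis was possible because there is only 1 library in every condition.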

Other observations

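Between 25 and 50 kb from the TRAF starts, outside the rule, the lists held 14 more peaks, none of them in a treated p65 list. The strongest lay in the TRAF3 window, about 30.2 kb downstream of the start, with a control fold of 9.71, a vehicle fold of 11.9 and no TEAD peak. A neighbour 28.1 kb downstream had a control fold of 7.59 and a vehicle fold of 5.08, beside a TEAD fold of 3.83. Around TRAF1 p65 and TEAD were called together at 2 sites, the first 42.5 kb downstream, with a control fold of 3.59, a vehicle fold of 6.18 and a TEAD fold of 6.13. A second such site lay 36.3 kb downstream, with a control fold of 4.70, a vehicle fold of 6.06 and a TEAD fold of 4.01. At TRAF2 this outer span held TEAD alone, at 37.3 and 38.6 kb upstream.

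The 38 promoter entries with the letters shared by BIRC3 and TRAF3 belong to 34 symbols. Among them are TNFAIP3, which encodes the NF-κB feedback inhibitor A20, SELE, the endothelial selectin, TAPBP, the tapasin of antigen presentation, and UBD, a ubiquitin-like modifier. They were picked from the list by name after it was seen, and p65 at these genes was not analysed here. The list also holds CLIC5, GYS1, ITIH1, OXTR and SF3B1, among others, and its symbols were not tallied by function.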
